A study of Mus musculus with 6 samples.

Results

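The 39 Hox genes of the mouse were examined in intestinal crypts with and without Arid1a, which encodes a subunit of the BAF complex, a remodeller of chromatin. A gene was included where the accession in a probe's systematic name led to a symbol made of Hox, a cluster letter from a to d and a number. All 39 had a probe, out of 23462 named genes on the array, and 7 of them had 2 probes, which gave 46 probes. Gene expression was measured on Agilent one-colour arrays, with 1 array for each of 6 samples of isolated crypts. The 3 knockout samples, labelled Villin-Cre; Arid1a f/f, carry floxed Arid1a alleles and a Cre recombinase under the promoter of Villin, a gene of intestinal epithelial cells that is not active in the stroma around them. The 3 control samples, labelled Arid1a f/f, carry the same floxed alleles with no Cre. The strain is given as mixed in both groups, and the labels do not state the animals' age or the segment of the intestine.

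Hox genes encode homeodomain transcription factors that lie in 4 clusters, HoxA to HoxD, on chromosomes 6, 11, 15 and 2. Their order along a cluster matches the order of their domains along the body, so low paralog numbers are active from anterior levels and high numbers towards the tail. In the gut, where much of their expression lies in the mesenchyme, they are known for setting regional differences along its length, and BAF, trithorax and Polycomb proteins are known regulators of the clusters.

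The promoters of Hoxa3, Hoxa7 and the non-coding RNA Mira are shown because Hoxa3 and Hoxa7 differed with opposite signs, neither past the test. In RefSeq their loci lie on either side of Mira. Each runs from 250 bases before to 50 bases after the start in RefSeq on GRCm38.p6, read 5′ to 3′ on the minus strand, on which all 3 are transcribed. Capitals mark TTTATG, a core sequence bound by the Cdx factors, searched on both strands.
Hoxa7, chr6:52218524-52218823: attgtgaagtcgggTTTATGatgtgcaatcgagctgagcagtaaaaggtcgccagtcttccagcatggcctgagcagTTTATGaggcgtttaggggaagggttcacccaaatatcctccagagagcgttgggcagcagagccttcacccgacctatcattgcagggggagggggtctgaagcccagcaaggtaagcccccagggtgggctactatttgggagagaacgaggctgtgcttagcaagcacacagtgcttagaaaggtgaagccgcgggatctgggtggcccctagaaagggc
Mira, chr6:52215239-52215538: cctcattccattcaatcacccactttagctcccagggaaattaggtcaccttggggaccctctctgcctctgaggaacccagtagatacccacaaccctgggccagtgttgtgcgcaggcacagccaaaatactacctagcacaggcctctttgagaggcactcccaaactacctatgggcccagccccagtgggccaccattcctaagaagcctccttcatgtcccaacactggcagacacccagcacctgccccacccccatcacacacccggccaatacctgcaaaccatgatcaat
Hoxa3, chr6:52213018-52213317: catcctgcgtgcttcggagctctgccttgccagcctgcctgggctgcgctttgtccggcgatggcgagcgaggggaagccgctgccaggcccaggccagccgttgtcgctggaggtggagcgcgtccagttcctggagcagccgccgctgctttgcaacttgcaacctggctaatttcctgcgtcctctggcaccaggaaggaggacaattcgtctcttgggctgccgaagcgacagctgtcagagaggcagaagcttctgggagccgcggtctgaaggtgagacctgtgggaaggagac
The Hoxa7 window held 2 copies of TTTATG, starting at bases 15 and 78, and those of Mira and Hoxa3 held 0. Of all 32851 promoters in the table, 11.9% held the motif, against 5 of 24 Hox promoters (20.8%). The Hox promoters had a median of 14.5 CpG dinucleotides, against 7 over all promoters. The Hoxa7 window had 9, that of Hoxa3 20 and that of Mira 2. The table held 22 of the 39 Hox genes, Hoxb3 not among them. A match is a description of these letters and not a measured site. The Hoxa3 window is the start of a RefSeq locus that extends across Hoxa4, Hoxa5 and Hoxa6, so it lies upstream of the Hoxa6 start. Whether the Hoxa3 probe reads a transcript from this start is not known here.

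The labels of 2 arrays contradict themselves. For knockout 2 the source name and genotype read as control, and for control 3 they read as knockout, whereas title and description, which set the groups here, read the other way. The Arid1a signal separated the groups, and both of those arrays lay with their title's group. On the log2 scale, with each array's 75th percentile set to 0, as for all levels below, it was 2.20, 2.07 and 2.51 in knockouts 1 to 3 and 3.71, 3.47 and 4.01 in controls 1 to 3. Slide 1 held knockouts 1 and 2 with controls 1 and 2, and slide 2 held knockout 3 with control 3. The epithelial marker list was well above background throughout, with all 12 of its genes tested, while 12 of 18 mesenchymal markers, Col1a1, Col3a1, Pdgfra and Dcn among them, were well above background on no array. Whether each sample is its own animal is not stated, so the spread behind the p-values may be technical. In bulk samples fewer cells of a type and less RNA per cell cannot be told apart.

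Most Hox genes were not detectable in these crypts. Of the 39, 26 were well above background on none of the 6 arrays, 6 were on 1 array, 2 on 2 arrays and 5 on at least 3. The 13 genes detected at all make up 33.3% of the family, against 66.8% of all named genes. For detection on at least 3 arrays the share was 12.8%, against 57.6%. Among the probes that were never well above background, the highest signal on an array, as processed by the scanner software and not scaled between arrays, was 19.9, 12.1 and 6.84 in knockouts 1 to 3 and 23.4, 16.5 and 15.1 in controls 1 to 3. The lowest signal that counted as well above background on those arrays was 21.7, 19.8 and 7.92 in the knockouts and 30.2, 22.2 and 13.8 in the controls. Detection therefore has an array-specific floor, and the share of all named genes above it was 56.8%, 55.2% and 63% in knockouts 1 to 3 and 53.8%, 56.5% and 59.8% in controls 1 to 3.

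Detection was concentrated in HoxA. In HoxA 8 of 11 genes were well above background on at least 1 array, in HoxB 2 of 10, in HoxC 2 of 9 and in HoxD 1 of 9. By position, 8 of 15 genes with paralog numbers 1 to 5 were detected on at least 1 array, 3 of 12 with numbers 6 to 9, and 2 of 12 with numbers 10 to 13. On at least 3 arrays the numbers were 2, 2 and 1 (13.3%, 16.7% and 8.33%), with no excess at the anterior end. Hoxa3 was the only member detected on all 6 arrays. Knockouts 1 to 3 had 9, 3 and 7 Hox genes well above background and controls 1 to 3 had 3, 5 and 7, so the groups overlapped. Knockout 1 had the most, among them Hoxa2 and Hoxa5, whereas knockout 2 had only Hoxa3, Hoxb3 and Hoxc9.

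**Figure D1:**
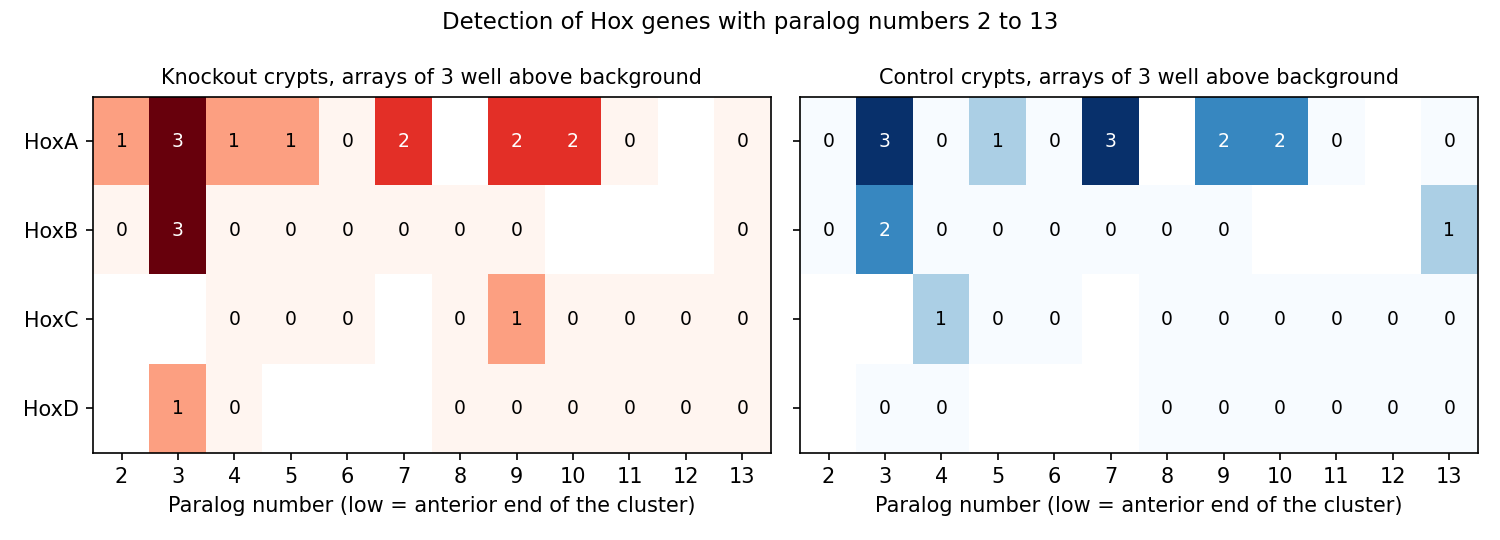
Each cell gives the number of arrays, out of 3 per group, on which a Hox gene was well above background, with clusters in rows, paralog numbers 2 to 13 in columns, knockout crypts on the left and control crypts on the right; blank cells without a number have no gene. HoxA holds most of the detected genes, with Hoxa3 at 3 of 3 in each group, and HoxC and HoxD have 1 detected array at most for any gene.

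The fit compared knockout with control crypts to see which Hox genes differ when Arid1a is lost from the epithelium. This was possible for the 5 genes with a probe well above background on at least 3 arrays, namely Hoxa3, Hoxa7, Hoxa9, Hoxa10 and Hoxb3 among 13496 genes in all. Of the 5, 1 was higher and 0 were lower at an adjusted p under 0.05 (limma with Benjamini-Hochberg adjustment over all genes tested, two-sided; 1 higher and 0 lower at an unadjusted p under 0.05). Across all genes tested, 7.28% (982) were higher and 7.62% (1029) lower. With the array median as scale these were 560 and 1389, while the Hox counts stayed at 1 and 0. The median log2 difference, knockout minus control, was -0.44 over the 5 Hox genes and -0.01 over all genes. The groups did not overlap for 2 of the 5, Hoxa3 and Hoxb3, against 39.7% of all genes. The count of 1 was 0 in several alternatives, which are given with Hoxb3.

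Hoxb3, an anterior gene of the HoxB cluster, was the member that rose. Its brighter probe gave -1.45, -0.35 and -1.30 in knockouts 1 to 3 and -3.55, -2.68 and -2.41 in controls 1 to 3. All 3 knockout arrays lay above all 3 control arrays, and the probe was well above background on 3 knockout and 2 control arrays. The log2 difference was 1.85 ± 0.40 (SE, n = 3 per group; limma adjusted p = 0.0287). A second, dimmer Hoxb3 probe read -2.80, -2.25 and -2.16 in the knockouts and -3.18, -2.78 and -2.34 in the controls. There the groups overlapped and the log2 difference was 0.36 ± 0.28 (limma adjusted p = 0.403 over all probes). The position of either probe in the gene is not known here, and in RefSeq Hoxb3 overlaps Hoxb4, Hoxb3os and Mir10a. The brighter probe's difference was 2.22 on slide 1 and 1.11 on slide 2, and the array median as scale gave 1.60.

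The call on Hoxb3 was lost, with the sign kept, when single arrays were left out. Omitting control 1, 2 or 3 gave adjusted p-values of 0.0829, 0.0792 and 0.0557, and omitting knockout 2 gave 0.0685. It was also lost with the mean of its 2 probes (1.11, adjusted p = 0.0615), with no filter on dim probes (adjusted p = 0.0818), on slide 1 alone (adjusted p = 0.0873) and without both arrays with contradicting labels (1.74, adjusted p = 0.1003). Grouping by source name and genotype gave 0.47, and normexp background correction gave 0.96 with the call kept (adjusted p = 0.0307). Values of marker lists for other cell types stand beside this result. Over all genes 7.28% rose and 7.62% fell, so 1 call among 3 or 4 tested genes says little about a list. Of the mesenchymal list 1 of the 3 tested genes rose, Thy1 at 1.92. The Thy1 call was lost with any 1 control left out and without both contradicting arrays (2.36, limma adjusted p = 0.0751). The 3, Thy1, Prrx1 and Vim, had a mean deviation from the control mean of 1.13, 0.77 and 1.42 in knockouts 1 to 3, against -0.29, 0.06 and 0.22 in controls 1 to 3. For the 4 tested endothelial markers of 8 it was 1.60, 1.79 and 1.42 in the knockouts, against 0.03, 0.03 and -0.05 in the controls, with 1 of the 4 called, Lyve1 at 4.64 ± 0.42. The others read 1.27 for Vwf, 0.53 for Pecam1 and -0.02 for Tek, and Cdh5, Kdr, Eng and Emcn were well above background on no array. In the smooth muscle list 1 of 4 tested genes rose, Acta2 at 0.91, with Tagln at -0.07. In the list of enteric neurons and glia it was 1 of 4, Tubb3 at 1.09, with Elavl4 at -0.33 and Uchl1 at -0.25. In both lists 0 were called with the array median as scale, without both contradicting arrays, or with any 1 control, knockout 2 or knockout 3 left out. Among the 12 epithelial markers 10 had positive differences, with a median of 0.35 and 0 called (2 higher and 0 lower at an unadjusted p under 0.05). The part of these cells in the Hoxb3 result was not tested.

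**Figure D2:**
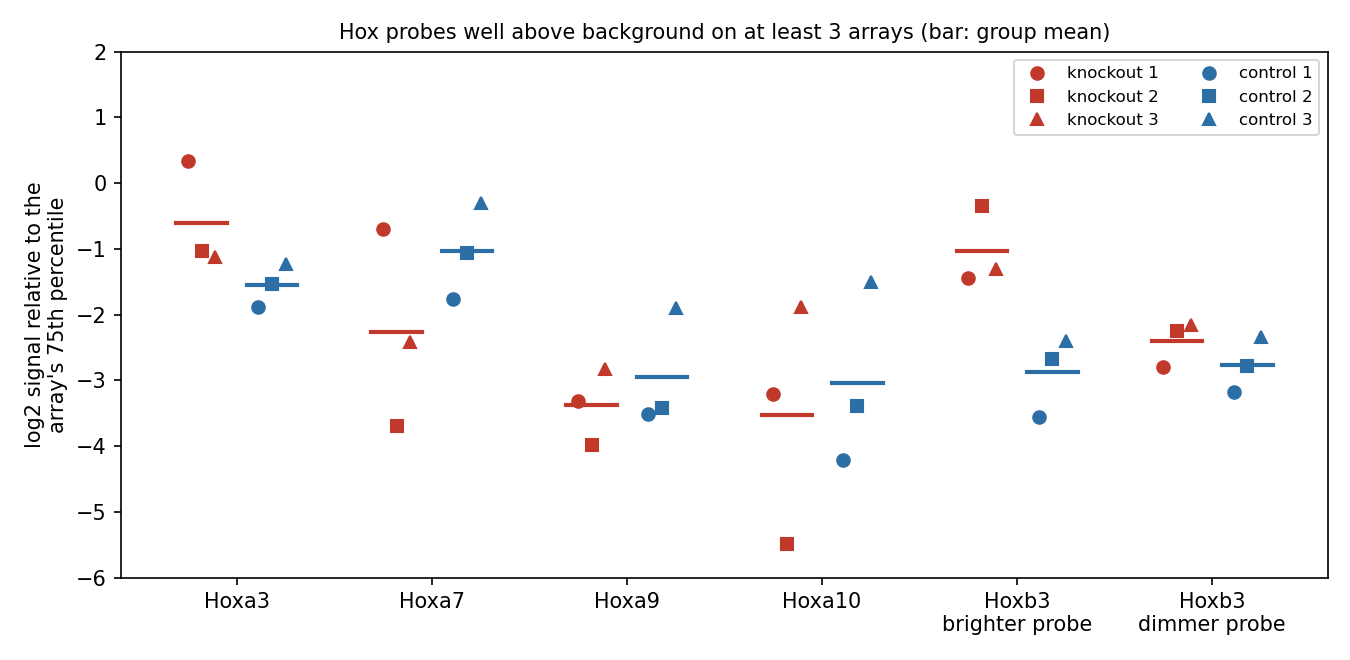
Each point is 1 array, with the 3 knockout arrays to the left of the 3 control arrays for each Hox probe, on the log2 scale relative to the array's 75th percentile; bars are group means and the marker shape gives the replicate number. The groups separate on the brighter Hoxb3 probe (means -1.03 in knockouts and -2.88 in controls) and, by a small margin, on Hoxa3; on Hoxa7, Hoxa9, Hoxa10 and the dimmer Hoxb3 probe they overlap.

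Hoxa3, the paralog of Hoxb3 in the HoxA cluster, had a higher mean in the knockout group without passing the test. It read 0.34, -1.03 and -1.13 in knockouts 1 to 3 and -1.89, -1.53 and -1.22 in controls 1 to 3. The groups did not overlap, but knockout 3 and control 3 differed by only 0.10, and knockout 1 stood above the rest. The log2 difference was 0.94 ± 0.42 (limma adjusted p = 0.162), with 1.36 on slide 1, and without knockout 1 it was 0.47 (adjusted p = 0.166). A second Hoxa3 probe was well above background on no array. In RefSeq the Hoxa3 locus extends across Hoxa4, Hoxa5 and Hoxa6.

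Hoxa2, Hoxa4 and Hoxa5, on either side of Hoxa3, did not enter the test. In a limma fit with no filter on dim probes, 0 of the 39 Hox genes passed, against 697 of all 23462 genes. At an unadjusted p under 0.05 there were 3 Hox genes. All 3 were higher, Hoxb3 (adjusted p = 0.0818) and Hoxa2 (adjusted p = 0.211) among them. The share of all genes at that unadjusted p was not counted, so the 3 are not read as a trend. Hoxa2 was well above background on knockout 1 alone, where its signal was 32.8, against a range of 3.35 to 9.24 on the other arrays. Hoxa4 was detected on knockout 3 alone (11.4), the array with the lowest detection floor, although its signals on the other arrays were 10.1 to 17.2. Hoxa5 was detected on knockout 1 (33.5) and control 3 (17.98). Hoxa6, between Hoxa5 and Hoxa7, was detected on none.

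Hoxa7, Hoxa9 and Hoxa10, the central and posterior genes of HoxA that could be tested, had lower means in the knockout group, and none passed. Hoxa7 read -0.70, -3.70 and -2.41 in knockouts 1 to 3 and -1.76, -1.06 and -0.30 in controls 1 to 3. Knockouts 2 and 3 lay below every control and knockout 1 lay above 2 of the 3. The log2 difference was -1.23 ± 0.75 (limma adjusted p = 0.284), with -0.79 on slide 1 and -2.11 on slide 2. Without knockout 1 it was -2.02 and passed (adjusted p = 0.0413), while leaving out knockout 2 and control 3 together gave -0.15 (adjusted p = 0.909). Without knockout 1, 4023 of all genes passed, against 2011 with all arrays.

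Hoxa9 read -3.32, -3.98 and -2.83 in knockouts 1 to 3 and -3.52, -3.42 and -1.90 in controls 1 to 3, a log2 difference of -0.44 ± 0.50 (limma adjusted p = 0.562). Hoxa10 read -3.21, -5.48 and -1.88 in knockouts 1 to 3 and -4.21, -3.39 and -1.51 in controls 1 to 3, a difference of -0.49 ± 1.03 (limma adjusted p = 0.762). Both genes were highest on control 3 and lowest on knockout 2, where neither was well above background, and their groups overlapped. Knockout 2 and control 3 are also the arrays with contradicting labels, and without them the difference was 0.39 for Hoxa9 and 1.26 for Hoxa10, with neither passing (adjusted p = 0.468 and 0.299). The leukocyte markers, of which 10 of 13 were tested, also varied between arrays. Of the 10, 8 had positive differences, with a median of 0.29. Among these 10 markers 0 rose and 1 fell, Lyz2 at -3.43, against 7.28% and 7.62% of all genes. Their mean deviation from the control mean was 0.42, -0.49 and 0.23 in knockouts 1 to 3 and -0.45, 0.49 and -0.04 in controls 1 to 3, and their part in the HoxA values was not tested. Hoxa11 and Hoxa13, the last genes of the cluster, were detected on no array.

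Outside HoxA and Hoxb3, detection of a Hox gene rested on 1 array each. Hoxb13, the most posterior HoxB gene, which is known from hindgut, prostate and tail, had a signal of 143.5 on control 3 and was not well above background on the other 5 arrays (4.17 to 18.2). Hoxc4 had 403.8 on control 1 and at most 4.87 elsewhere. Hoxd3, the HoxD paralog of Hoxa3 and Hoxb3, had 67.5 on knockout 1 and at most 7.01 elsewhere. Hoxc9 had 23.1 on knockout 2 and at most 6.06 elsewhere. No other array of the same group showed these 4 genes, and no difference between groups is given for them. Hoxb1, Hoxb2, Hoxb4 to Hoxb9, Hoxc5, Hoxc6, Hoxc8 and Hoxc10 to Hoxc13, as well as Hoxd1, Hoxd4 and Hoxd8 to Hoxd13, were well above background on none.

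Non-coding RNAs transcribed within the clusters were measured beside the coding genes. Of 22 names on a list of such RNAs, 8 had a probe and 5 were tested. Of these 5, 1 rose and 0 fell, against 7.28% and 7.62% of all genes, with a median of 0.09. Hoxaas3, an antisense RNA whose locus overlaps Hoxa3, Hoxa5 and Hoxa6, was the one that rose. It read 0.33, 0.16 and 0.49 in knockouts 1 to 3 and -1.26, -1.28 and -0.56 in controls 1 to 3, with every knockout above every control. The log2 difference was 1.36 ± 0.24 (limma adjusted p = 0.0153), with 1.52 on slide 1 and 1.06 on slide 2. Leaving out control 1 or 2 ended the call (adjusted p = 0.0661 and 0.0613), and it held without both arrays with contradicting labels (1.68, adjusted p = 0.0409). Whether the Hoxaas3 and Hoxa3 probes each see only their own strand is not known here.

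Mira, known as an RNA that activates Hoxa6 and Hoxa7 in mouse embryonic stem cells, lies next to Hoxa7 in RefSeq. It read -0.92, -2.26 and -1.59 in knockouts 1 to 3 and -1.44, -0.80 and -0.39 in controls 1 to 3. As for Hoxa7, knockouts 2 and 3 were the lowest arrays and control 3 the highest. The difference was -0.71 ± 0.40 and did not pass (limma adjusted p = 0.252), and it was -0.13 without both arrays with contradicting labels. Haglr, between Hoxd3 and Hoxd1, was well above background on all 6 arrays, with signals of 118, 111.6 and 103.6 in knockouts and 113.9, 113 and 128 in controls, although neither neighbouring Hox gene was detected beyond 1 array. Its log2 difference was 0.23 ± 0.17 (adjusted p = 0.376). Hoxb5os, which overlaps Hoxb5 and Hoxb6, was likewise detected on all 6 arrays by 1 of its 2 probes, with a difference of 0.09 ± 0.32 (adjusted p = 0.855). Hottip, beside Hoxa13 at the posterior end, differed by -0.07 ± 0.26 (adjusted p = 0.871). It was well above background on only 1 knockout and 2 control arrays, with signals of 16.2 to 33.3, near the detection floor.

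**Figure D3:**
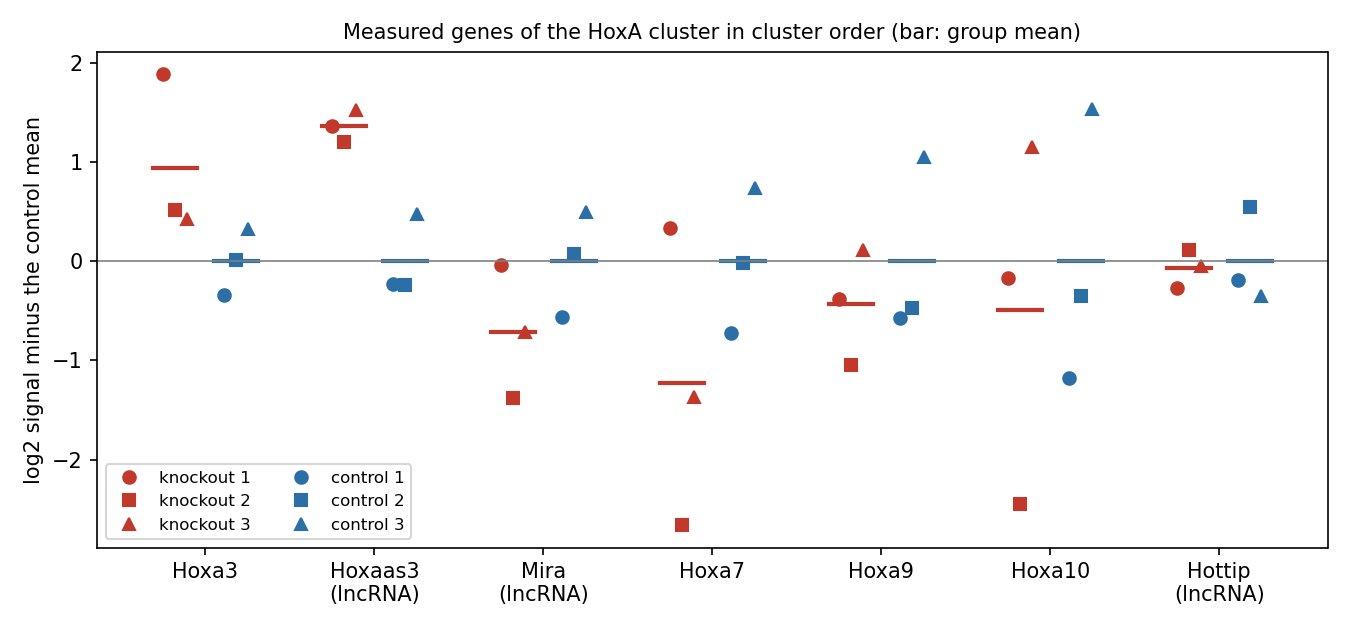
Log2 signal minus the control mean for the 7 tested genes and RNAs of the HoxA cluster, ordered from the anterior to the posterior end; points are arrays (knockout left of control for each gene), bars are group means and shapes give replicate numbers. The knockout mean is above the control mean for Hoxa3 and Hoxaas3, below it for Mira, Hoxa7, Hoxa9 and Hoxa10 and close to it for Hottip (-0.07), with only Hoxaas3 past the test. Hottip, near the detection floor, was well above background on only 1 knockout and 2 control arrays.

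ParaHox genes are the sister family of the Hox clusters, and Pdx1 and Cdx2 among them set the identity of gut segments. With the Evx genes 8 were listed and 4 tested, of which 1 rose and 1 fell, against 7.28% and 7.62% of all genes. Pdx1, the factor of the duodenum and pancreas, rose to 2.04, 2.87 and 1.64 in knockouts 1 to 3, against -0.79, 0.53 and 0.09 in controls 1 to 3. The log2 difference was 2.24 ± 0.43 (limma adjusted p = 0.0202). Cdx1, a factor of the intestinal epithelium and a known activator of Hox genes in mouse embryos, Hoxa7 among them, fell to 5.38, 5.32 and 4.50 in knockouts 1 to 3, against 6.42, 6.06 and 6.13 in controls 1 to 3. The log2 difference was -1.14 ± 0.27 (limma adjusted p = 0.0376). Cdx2, which keeps the epithelium intestinal, read 5.57, 5.51 and 5.33 in knockouts and 6.10, 5.85 and 6.10 in controls, and missed the threshold at -0.55 ± 0.16 (adjusted p = 0.0626). Without knockout 1, where 4023 of all genes passed against 2011 with all arrays, it passed (-0.60, limma adjusted p = 0.0447). The groups did not overlap for any of these 3 genes, which holds for 39.7% of all genes. Evx2, at the posterior end of HoxD, was detected on all 6 arrays and differed by 0.17 ± 0.20 (adjusted p = 0.577). Without both arrays with contradicting labels neither call held (Pdx1 1.97, adjusted p = 0.143, and Cdx1 -1.3, adjusted p = 0.177). Leaving out control 1, control 3 or knockout 2 ended the Pdx1 call, and leaving out any 1 control or knockout 2 ended that of Cdx1.

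Hox proteins bind DNA with partners of the TALE family, the Pbx, Meis and Pknox proteins. Of 9 such genes 6 were tested and 0 passed in limma (0 higher and 2 lower at an unadjusted p under 0.05), with a median of 0.03. The 2 were Pbx3, at -0.79 ± 0.23 (adjusted p = 0.0646), and Meis3, at -0.59 ± 0.18 (adjusted p = 0.0712). For neither did the groups overlap, which holds for 39.7% of all genes. Pbx3 passed without knockout 1 (adjusted p = 0.0275), and Meis3 with the array median as scale (-0.84, adjusted p = 0.0431). Without knockout 1, 4023 of all genes passed, against 2011 with all arrays. The brightest Meis2 probe varied within the knockout group, with 0.70, 2.43 and 0.25 in knockouts 1 to 3 and -0.51, -0.23 and 0.28 in controls 1 to 3. Its difference of 1.28 ± 0.56 did not pass, nor did those of the other 2 Meis2 probes, 2.51 and 2.57 (limma adjusted p = 0.172, 0.0634 and 0.0552 over all probes). Meis1, the best known Hox partner in blood progenitors, was well above background on no array.

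**Figure D4:**
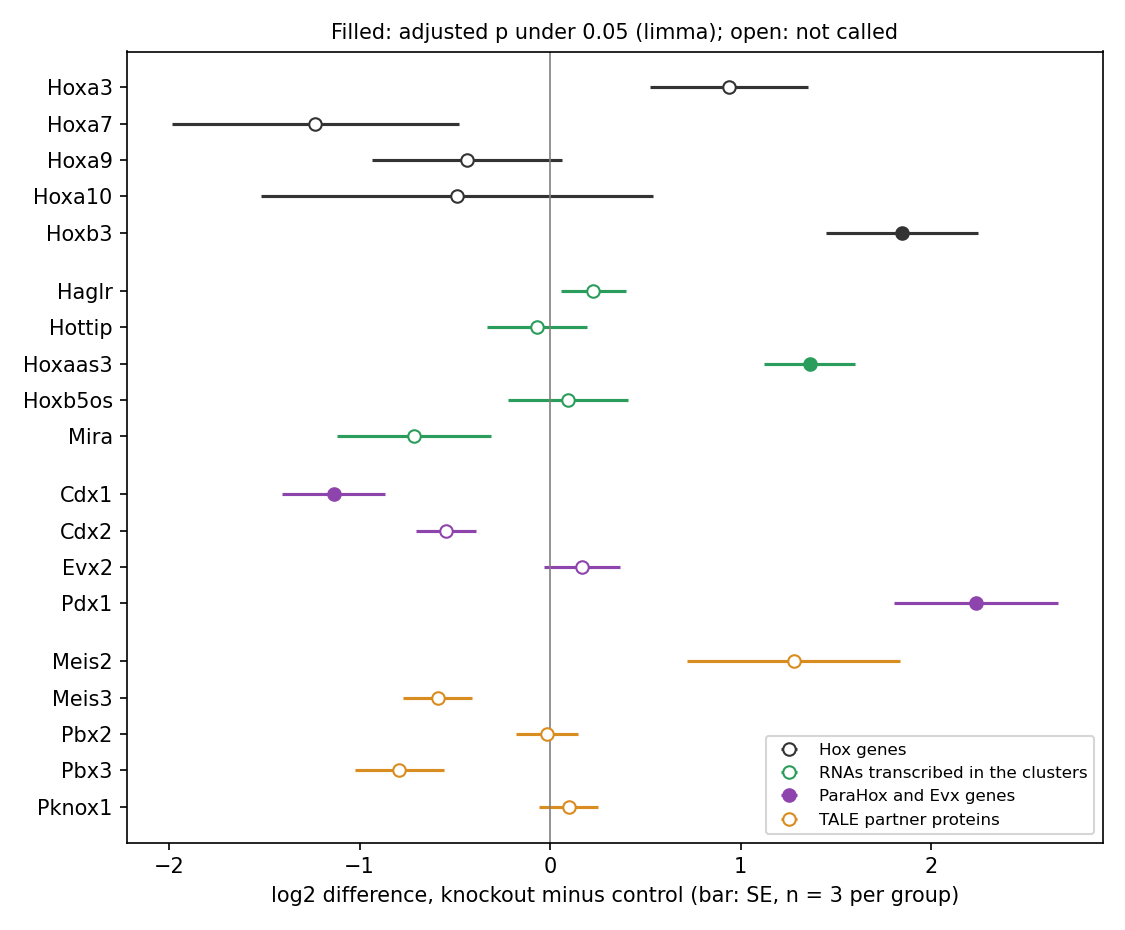
Log2 difference between knockout and control (points) with its standard error (bars, n = 3 per group) for the tested Hox genes, cluster RNAs, ParaHox and Evx genes and 5 of the 6 tested TALE partner proteins; filled points passed an adjusted p under 0.05. Hoxb3, Hoxaas3 and Pdx1 passed as higher (1.85, 1.36 and 2.24) and Cdx1 as lower (-1.14).

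Known regulators of the Hox clusters were measured more widely. Of 33 listed genes, 28 were tested, of which 2 rose and 6 fell, with a median of -0.23. Over all genes 7.28% rose and 7.62% fell, so the number that rose is near the background. Rarg, a retinoic acid receptor, rose by 3.40 ± 0.22 (limma adjusted p = 0.000595), with 0.54, 1.17 and 1.13 in knockouts 1 to 3 against -2.42, -2.60 and -2.35 in controls 1 to 3. Bmi1, a Polycomb subunit that represses Hox genes, rose by 1.03 ± 0.15 (adjusted p = 0.00915), but missed the threshold with the array median as scale (0.78, adjusted p = 0.0552) and without both arrays with contradicting labels (0.96, adjusted p = 0.139). The chromodomain Polycomb genes Cbx7, Cbx2 and Cbx8 fell, at -1.83 ± 0.18, -2.5 ± 0.39 and -0.91 ± 0.16. Also among those that fell were Ash2l, a subunit of the trithorax-type methyltransferases, and Rara (-0.84 on its brighter probe and -0.62 on the other). In the fit over all probes neither Rara probe passed (limma adjusted p = 0.0578 and 0.120). Ezh2, Eed and Suz12, the Polycomb core, did not pass, at -0.33, -0.32 and 0.75. Without both arrays with contradicting labels 1 gene of the list rose and 1 fell, Rarg and Cbx7, and without control 1, control 3 or knockout 2 the number that fell was 3. Over all genes the number that fell dropped too, from 1029 to 143 without both contradicting arrays. Without control 1, control 3 or knockout 2 it was 286, 363 and 465.

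Since Hox genes mark position, lists of genes with regional expression were read beside them, again against 7.28% higher and 7.62% lower over all genes. In the ileum list 5 of 10 tested genes fell and 1 rose, with a median of -2.08, and 3 fell when any 1 control was left out. Those with the smallest p were Amn (-2.21), part of the vitamin B12 receptor, the neuropeptide gene Nts (-3.67), Fabp6 and the bile acid transporter gene Slc51b, which rose (1.83). Fabp6, the ileal bile acid binding protein, was well above background on 3 control and 0 knockout arrays and was at least 3.29-fold lower. It entered the fit through the control arrays alone, so its call is no support for the list's count. Osr2, a transcription factor, changed by -2.98 ± 0.74 (limma adjusted p = 0.0428). Its call was lost with any 1 control or knockout 1 left out. In the fit over all probes its brighter probe missed (limma adjusted p = 0.0515) and its other probe passed (-3.18, adjusted p = 0.0408). In the colon list 4 of 9 tested genes fell and 1 rose, with a median of -1.12, and 2 fell when any 1 control or knockout 2 was left out. Aqp8, a water channel gene, was among those that fell, at -2.33. Without both arrays with contradicting labels Fabp6 and Osr2 did not pass, and 1 gene of each of these lists fell. Of 12 genes of the proximal small intestine 1 rose and 1 fell, which is near the background. They were Pdx1 (2.24) and the lactase gene Lct (-5.1 ± 1.01). In this list 0 genes fell without both contradicting arrays, or with any 1 control or knockout 2 left out, so the Lct call was lost there. Gata4, a factor of the duodenum and jejunum, did not pass, at 0.37 ± 0.20 (adjusted p = 0.222). The labels do not state whether knockout and control crypts came from the same segment, so a difference in segment and the loss of Arid1a cannot be told apart in these lists.

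**Figure D5:**
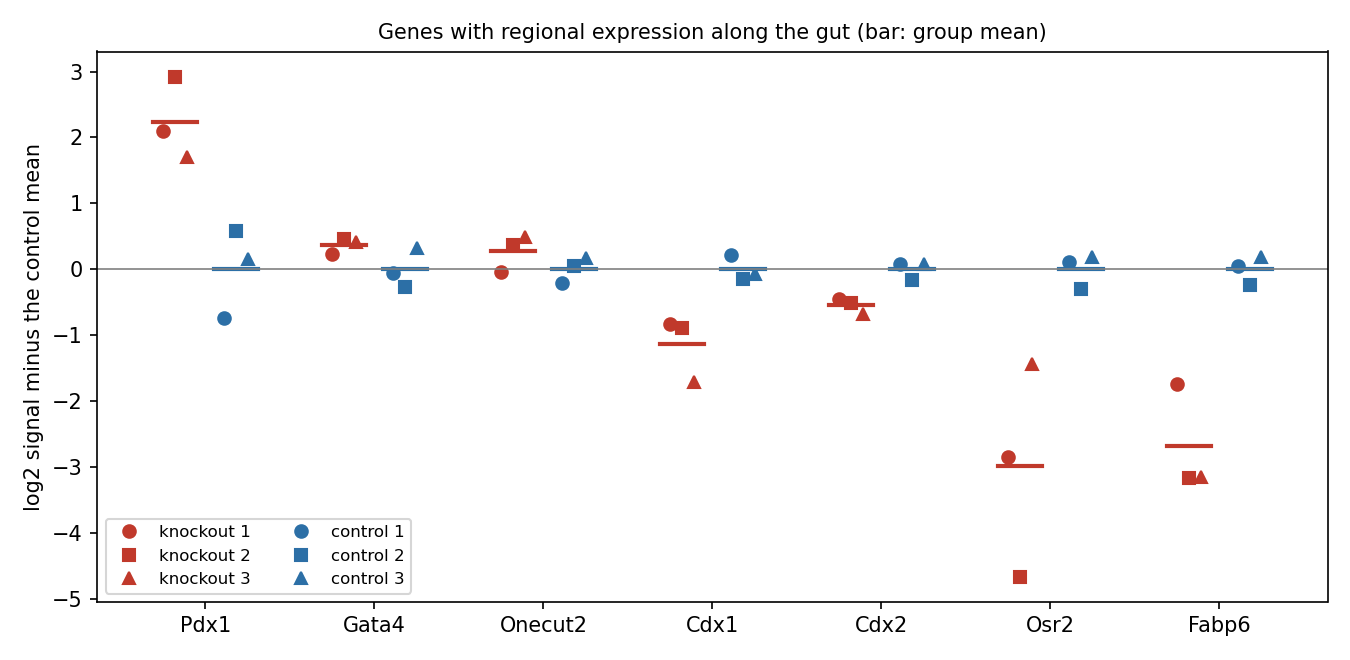
Log2 signal minus the control mean for 7 transcription factors and transport genes with regional expression in the gut; points are arrays (knockout left of control for each gene), bars are group means and shapes give replicate numbers. Pdx1 lies above the controls on all 3 knockout arrays, Cdx1, Cdx2, Osr2 and Fabp6 lie below them on all 3, and Gata4 and Onecut2 overlap. The groups do not overlap for 39.7% of all genes, and Fabp6 entered the fit through the control arrays alone. Slc51b of the ileum list, which rose (1.83), and Lct of the proximal list, which fell (-5.1), are not drawn.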

How the data were processed

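RNA of 6 crypt samples was labelled with Cy3 and hybridised to 1 one-colour array each, per the labels. Spot intensity was deposited by the authors as Agilent Feature Extraction output (version 12.0.3.1 per the file headers, 11.5.1.1 per the submitters' processing notes), background-subtracted within each array and not scaled between arrays. The well-above-background, outlier and saturation flags are the authors' Feature Extraction values of 0 or 1, per the file headers, and 0 spots were saturated. A series table deposited by the authors gives log2 values on the same scale, centred on each probe's median; the comparison with the scanner values showed this, and its column medians run from -0.32 to 0.22. It served as an alternative.

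Outlier spots were left out, and repeat spots were averaged per probe. The level is the log2 processed intensity minus that of the array's 75th percentile. Probes were named by unversioned accession through a RefSeq table of GRCm38.p6 (33767 of 56605 received a symbol). The array's own coordinates are on mm9 and were not used. Probes well above background on at least 3 arrays were kept, and the probe with the highest mean stood for a gene. The fit was limma 3.58.1 (R 4.3.3), without covariates, over 13496 genes, also run on all 26746 kept probes, and was checked on simulated data. Where named, a group well above background on no array is given as a bound, with the lowest such signal, or the probe's own where higher, in its place. The number of arrays limits the precision.

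The members and lists were chosen with earlier results of these data known. The Hox genes were named, and in each other list at most 4 genes by lowest p. Other genes named from the lists, such as Osr2, Cbx2, Cbx8, Ash2l, Rara, Gata4 and the Polycomb core, were chosen after their values were seen. Some genes of the lists are not reported here. Alternatives were the normalization, background correction, filter, choice of probe, replicate number or slide as a block, grouping by the other labels, array weights, variance model, thresholds and each array left out. The alternatives for lists and their genes (label conflict, slide, array median, each array left out) were chosen after seeing the data.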

Additional observations from a re-analysis of the deposited data

How the results depend on the processing

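The number of Hox genes that rose was 1 and that fell 0. The number that rose was 0 with no filter on dim probes, with probes well above background on all 6 arrays (Hoxa3 alone was then tested), with the mean of a gene's probes, on slide 1 alone, with the groups taken from source name and genotype and without both arrays with contradicting labels; over single arrays left out it ranged from 0 to 1, and the number that fell from 0 to 1 (Hoxa7, without knockout 1). Hoxb3 kept its sign in all 23 alternatives and its call in 14, with differences from 0.47 to 2.30. These counts are no measure of robustness. Changes of threshold, filter, variance model or block mostly left the difference at 1.85, and the deposited table holds the same values. The fit over all probes is not among the 23. There the dimmer Hoxb3 probe did not pass (limma adjusted p = 0.403), while the brighter one did (adjusted p = 0.0365). The median difference of the tested Hox genes was 0.94 with either stricter filter, which tested 1 and 3 genes, 0.96 by source name and genotype, 1.26 without both contradicting arrays, and from -0.72 to 0.49 with single arrays left out. By source name and genotype the signs of Hoxa10 (2.16), Hoxa7 (1.03) and Hoxa9 (0.96) turned, and 0 of all genes passed; without both contradicting arrays those of Hoxa10 (1.26) and Hoxa9 (0.39) turned. With single arrays left out Hoxa10 ranged from -1.31 to 0.49, turning without knockout 2 (0.49) or control 3 (0.28), and Hoxa9 from -0.72 to 0.088, turning without control 3. The cause was not tested. The array median as scale gave a median gene of -0.26. Of all genes 2011 passed, against 697 with no filter, 689 on slide 1, 320 without both contradicting arrays, 4766 with array weights, 3445 at an adjusted p under 0.1 and 638 to 4023 with single arrays left out.

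With the replicate number as a block (replicate block) Hoxb3 passed at 1.85 (adjusted p = 0.0194), no other Hox gene passed, and 2731 of all genes did, against 2011. Samples with the same number deviated together by 0.25, 0.08 and 0.35 (correlation across genes), each knockout correlating best with its own number, which is a hint from the data and not the design. Knockout 3 and control 3, at 0.35, are also the only arrays of slide 2, so a slide effect and a pairing cannot be told apart there. Signal over background left 34 of the 39 genes untested.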
